A study of Mus musculus with 8 samples.

Results

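The genes described here encode the transcription factor NRF2 (gene Nfe2l2) and 9 redox and detoxifying proteins of its antioxidant programme: Slc7a11, Gclc, Gclm, Txnrd1, Prdx1, Srxn1, Nqo1, Hmox1 and Aldh3a1. They are 10 genes beside a total of 18193 with a probe set of their own, a total that holds all of them but Prdx1, and they were taken by symbol with all 23 of their probe sets. A probe set is a group of short probes for 1 transcript, and its signal is a fluorescence intensity. The samples were oligodendrocyte precursor cell cultures of ICR mouse cerebral hemispheres, taken from embryos aged 15 days and grown for 5 days in D-MEM with 10% serum. They were then moved to serum-free basal medium and kept for 48 hr at 31.5 °C (4 arrays) or at 37 °C (4 arrays). Serum withdrawal, strain and culture history were thus shared by both groups, and each was sampled at a single time. RNA is labelled as coming from 3 mice in each group, against 4 arrays, and separate cultures are not stated, so errors and p-values measure only the spread between these samples.

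NRF2 is a transcription factor that is made continuously and, in unstressed cells, is bound by KEAP1 and passed to the proteasome. Oxidants or electrophiles release it, and it then binds antioxidant response elements, with small MAF proteins, near genes of glutathione synthesis, thioredoxin recycling, quinone reduction and haem breakdown. Its activity is therefore set largely at the level of the protein, and cells of the oligodendrocyte lineage, which carry much iron and lipid, are known to be sensitive to glutathione loss.

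The 250 bases before the start site are shown for 4 of the genes, because they set 2 genes whose level rose at 31.5 °C (Srxn1 and Nqo1) beside 2 whose main probe set did not pass the test (Prdx1 and Nfe2l2). The sequences are RefSeq's for mouse build GRCm38.p6, read 5′ to 3′ on the strand of the gene, and each ends at the base before the outermost start of the gene. Capitals mark matches, on either strand, to the core of the antioxidant response element (TGACNNNGC) or to the AP-1 site (TGANTCA), where N is any base. The motifs can overlap, since TGACTCAGC holds both.
Srxn1 (chr2:152105274-152105523, plus strand): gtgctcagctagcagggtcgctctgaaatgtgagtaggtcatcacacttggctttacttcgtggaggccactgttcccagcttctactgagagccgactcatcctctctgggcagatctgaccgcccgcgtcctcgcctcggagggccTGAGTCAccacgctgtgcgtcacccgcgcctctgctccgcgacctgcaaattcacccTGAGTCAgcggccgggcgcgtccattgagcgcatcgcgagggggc
Nqo1 (chr8:107403206-107403455, minus strand): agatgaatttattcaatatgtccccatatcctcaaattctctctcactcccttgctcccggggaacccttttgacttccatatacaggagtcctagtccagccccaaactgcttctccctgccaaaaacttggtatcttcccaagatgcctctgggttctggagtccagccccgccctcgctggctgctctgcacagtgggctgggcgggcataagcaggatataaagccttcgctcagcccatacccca
Prdx1 (chr4:116685349-116685598, plus strand): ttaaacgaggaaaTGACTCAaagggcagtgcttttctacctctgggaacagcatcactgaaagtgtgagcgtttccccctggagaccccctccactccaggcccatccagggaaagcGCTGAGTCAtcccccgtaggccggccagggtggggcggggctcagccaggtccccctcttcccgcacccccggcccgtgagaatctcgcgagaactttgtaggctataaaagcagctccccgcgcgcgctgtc
Nfe2l2 (chr2:75704664-75704913, minus strand): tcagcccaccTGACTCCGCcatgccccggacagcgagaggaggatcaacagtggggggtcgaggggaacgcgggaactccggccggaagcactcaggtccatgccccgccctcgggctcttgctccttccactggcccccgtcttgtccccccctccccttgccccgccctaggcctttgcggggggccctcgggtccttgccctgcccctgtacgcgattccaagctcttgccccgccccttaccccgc

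The Prdx1 window holds 1 match to the response element core, on the reverse strand at bases -133 to -125, which overlaps an AP-1 match at -131 to -125. A further AP-1 match of Prdx1 lies at -237 to -231. Nfe2l2 holds 1 such match, at -240 to -232. Srxn1 holds 2 AP-1 matches, at -102 to -96 and -45 to -39, and none of the core, and Nqo1 holds neither motif within these letters. Of the 32851 windows of the same length in the table, 10.2% hold the core and 6.75% the AP-1 site, so a match is common and is a description of the letters. An element farther from the start, or one that departs from these exact patterns, is not counted, so a gene without a match may still have one. Windows were matched for 7 of the 10 genes. Among the windows not printed, 1 of Gclm and 1 of Txnrd1, both inside the annotated gene, hold a core match, at -134 to -126 and -92 to -84. The window of Slc7a11 and the remaining windows of Txnrd1, among them that at its outermost start, hold neither motif.

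The deposited signal was at different levels between arrays: its trimmed mean ran from 189 to 238 at 31.5 °C and from 132 to 248 at 37 °C, with the lowest in replicate 4 at 37 °C. Arrays were therefore scaled to a common trimmed mean, and all signals below are scaled. Defining markers of the precursor were present, with Olig1 at 6727 ± 389.7 at 31.5 °C and 6752 ± 646 at 37 °C (mean ± SD over 4 arrays, as for all such pairs below) and Pdgfra at 2469 ± 365 at 31.5 °C and 1798 ± 168 at 37 °C. Of the 7 precursor markers Pdgfra rose (by 0.45 on the log2 scale), Gpr17, a receptor of late precursors, fell by 0.84 and 5 did not pass, among them Olig2 (-0.21) and Sox10 (-0.36), with a list median of -0.21. Markers of other cells were present too, and no marker lay under the floor of 9.80 on all 8 arrays. The vascular marker Pecam1 came near to that, under the floor on 3 arrays at 31.5 °C and 4 at 37 °C. It and Cldn5 were too dim to be tested, and of the 5 fibroblast and vascular markers tested 0 passed in limma. The summed signal of the 7 astrocyte markers was 8788 to 15891 at 31.5 °C and 11341 to 21241 at 37 °C, and 0 of the 7 passed the test in limma (2 lower and 0 higher by unadjusted p at 0.05). Of 7 microglia markers 0 passed in limma (1 lower and 0 higher by unadjusted p; sums 4404 to 7970.2 and 4835 to 10865), of 7 neuron markers 1 fell, and of 5 tested oligodendrocyte markers 5 fell (sums over 6 measured, 8250.4 to 11965 and 16660 to 20761). One of the 5, Mobp, was tested only because of its level at 37 °C, with means of 10.02 at 31.5 °C and 304 at 37 °C. With the replicate number as a block, a fit in which 12.4% of probe sets rose and 13.9% fell, 4 astrocyte markers fell (Gfap, Aqp4, Aldh1l1 and Aldoc). So did 3 microglia markers (C1qa, C1qb and C1qc), 3 neuron markers and 2 fibroblast and vascular markers (Col1a1 and Lum), and 0 of these lists' members rose. Lum, with means of 34.2 at 31.5 °C and 43.7 at 37 °C, was tested only because of its level at 37 °C. The astrocyte and microglia sums overlapped between temperatures and the oligodendrocyte sums did not. The part of these other cells in the results below was not tested. In such bulk cultures a change in the number of cells of a type and a change of RNA per cell cannot be told apart.

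The comparison asks which transcripts of the antioxidant programme differ between cultures kept cool and cultures kept at normal temperature. Each gene is led by its brightest probe set. By that measure 8 of the 10 genes were higher at 31.5 °C and 0 lower, with fold differences from 1.499 for Txnrd1 to 3.94 for Aldh3a1, and Nfe2l2 and Prdx1 did not pass. Aldh3a1 was bright enough to be tested only because of its level at 31.5 °C. With a stricter filter, at the 70th percentile, it was not tested and 7 of the 9 genes tested were higher. Over all probe sets of the 10 genes, 22 were tested and 1 was too dim: 14 rose, 0 fell and 8 did not pass. Across the whole array 6.52% of the 22519 probe sets tested rose and 6.83% fell (limma with Benjamini-Hochberg adjustment over all of them, threshold 0.05), 13.4% in all. Of all 23 probe sets 15 had every value at 31.5 °C above every value at 37 °C, as did 6.35% of all 45037 on the array. With arrays scaled to a common median the share of higher among all called probe sets was 61.4%, against 48.9% as processed. The median change of all probe sets was then 0.08 on the log2 scale, against -0.0050 as processed, and 7 of the 10 genes were higher, Gclc being lost.

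**Figure D1:**
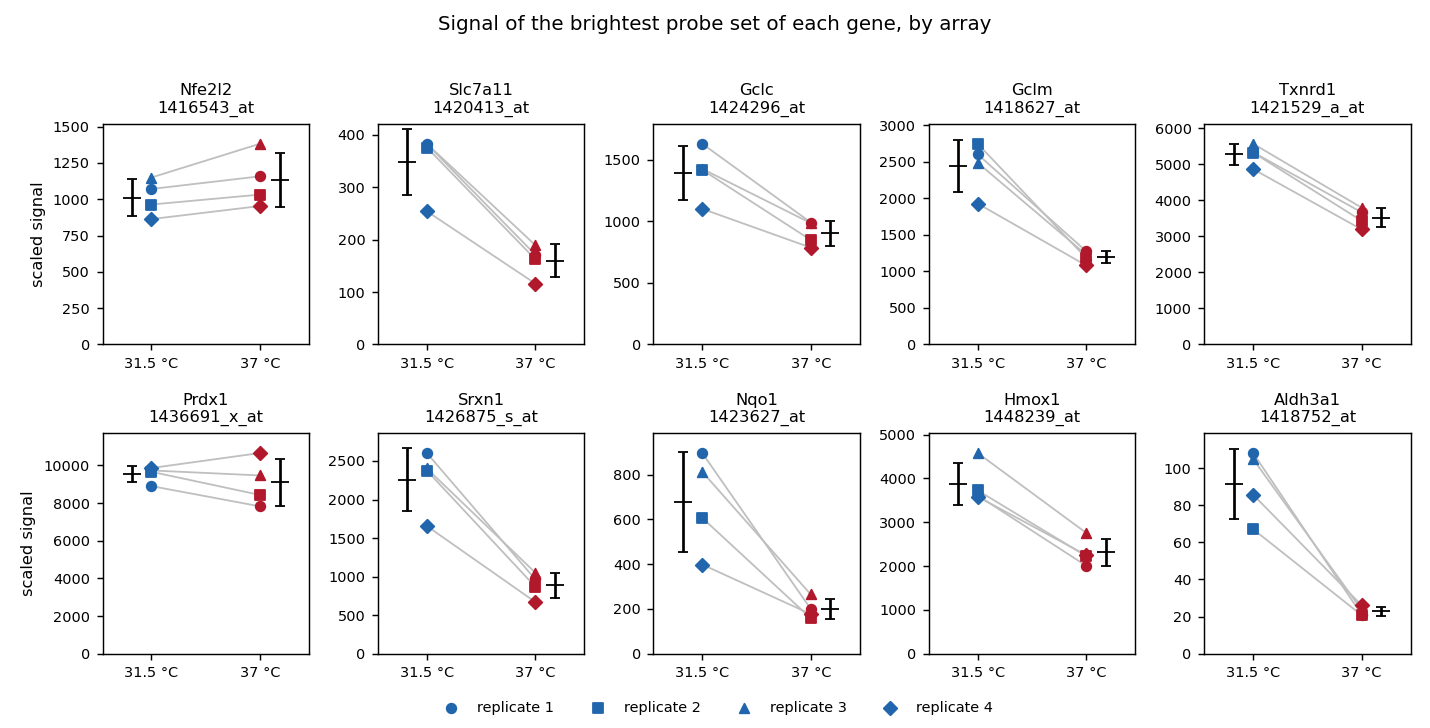
Scaled signal (y axis, linear and from 0) of the brightest probe set of each of the 10 genes on the arrays at 31.5 °C (blue, left) and 37 °C (red, right); grey lines join arrays of 1 replicate number, and black bars give the mean and SD over 4 arrays. In 8 panels every blue point lies above every red one, while in those of Nfe2l2 and of Prdx1, whose probe sets also carry a pseudogene, the temperatures overlap.

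The regulator came out differently by probe set. Nfe2l2 was read by 1416543_at at 1070.4, 963, 1149 and 863 in replicates 1 to 4 at 31.5 °C, and at 1157, 1032, 1382 and 953 at 37 °C. The groups overlapped, although the signal was lower at 31.5 °C in each of the 4 pairs of the same number. The log2 difference, 31.5 °C minus 37 °C, was -0.16 ± 0.14 (SE, adjusted p = 0.51), with a 95% interval from -0.47 to 0.16. A dimmer Nfe2l2 probe set, 1457117_at, had 33.8, 24.8, 28.6 and 41.6 at 31.5 °C and 6.61, 1.22, 4.35 and 2.56 at 37 °C. There the groups did not overlap, and all 4 values at 37 °C were under the floor of 9.80, the level to which dim values were raised before logs were taken. Its mean was below the filter of 38.3 and it was not tested in the main fit. With no filter it was called higher, by 1.69 against the floor (limma, adjusted p = 0.00496), where 2.8% of 45037 probe sets were higher. The choice of floor sets that value, and raising all 4 values at 37 °C to the floor leaves no spread there. The files do not say which transcript each of the probe sets reads.

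Glutathione synthesis begins with cystine import by the transporter encoded by Slc7a11. Slc7a11 (1420413_at) gave 382, 376, 383 and 254 at 31.5 °C, against 171, 162, 189 and 116 at 37 °C. Every array at 31.5 °C was above every array at 37 °C, as for 10.9% of probe sets tested, and replicate 4 was the lowest of both groups. The log2 difference was 1.13 ± 0.19 (adjusted p = 0.00729), and in the 4 pairs it lay between 1.02 and 1.21, so the fold was much alike in bright and dim pairs. The second probe set of Slc7a11, 1443536_at, was dim (52.7 to 66.0 at 31.5 °C, 29.6 to 53.8 at 37 °C) and rose by 0.64, with overlap between the groups (adjusted p = 0.0476, up to 0.197 over the alternatives). That call ended without any array other than replicate 3 at 37 °C.

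Glutamate-cysteine ligase, which limits glutathione synthesis, consists of a catalytic subunit encoded by Gclc and a modifier subunit encoded by Gclm. Gclm (1418627_at) gave 2602, 2746, 2487 and 1928 at 31.5 °C and 1275, 1182, 1228 and 1081 at 37 °C, with no overlap. The difference was 1.02 ± 0.12 (adjusted p = 0.00198), and was higher in each pair, by 0.84 to 1.22. Its dimmer probe set 1439050_at gave 578 to 750.1 at 31.5 °C and 304 to 392 at 37 °C and rose by 0.94 ± 0.12 (adjusted p = 0.00291). Gclc (1424296_at) gave 1629, 1417, 1425 and 1101 at 31.5 °C and 989.8, 848, 985 and 786 at 37 °C. Its groups did not overlap either, and the difference was 0.62 ± 0.14 (adjusted p = 0.0213, up to 0.228). It had the highest adjusted p of the 8 genes, and its call ended with median scaling, with no scaling, with no filter, and without replicate 1, 2 or 3 at 31.5 °C or replicate 2 or 4 at 37 °C. With the replicate number as a block, where 12.4% of probe sets rose, its adjusted p was 0.00515. Under the block the call held with each pair left out in turn. The other Gclc probe set, 1455959_s_at, lay between 783 and 946 at 31.5 °C and between 497 and 754 at 37 °C (0.44 ± 0.13, adjusted p = 0.063, and 0.0163 with the replicate number as a block).

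The subunits were then set against each other within each array, which removes the scaling. Gclm changed by 0.40 ± 0.14 more than Gclc on the log2 scale (95% interval 0.09 to 0.72), in the same direction in 4 of 4 pairs. For the brightest Gclm probe set this passed over all probe sets (limma, unadjusted p = 0.0162, adjusted p = 0.0293, up to 0.0951). In that comparison 0.422% of probe sets were above Gclc and 66.8% below. The many calls below ease the adjustment, so the adjusted p gives little control of false calls above Gclc. It did not pass without replicate 2 or 3 at 31.5 °C or without any of the 4 arrays at 37 °C (0.36 to 0.45 with single arrays left out). The other Gclm probe set, 1439050_at, had a difference of 0.32 above that of Gclc and did not pass (adjusted p = 0.0651).

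Thioredoxin reductase 1, a selenoprotein encoded by Txnrd1, uses NADPH to reduce thioredoxin. Txnrd1 (1421529_a_at) gave 5328, 5320.2, 5564 and 4861 at 31.5 °C and 3663, 3428, 3792 and 3188 at 37 °C, with no overlap. Its difference was 0.58 ± 0.09 (adjusted p = 0.00535, and 0.278 with no scaling), with 0.54 to 0.63 in the 4 pairs, the narrowest range over pairs among the 8 genes that rose. Its other probe sets rose by 0.77 (1424486_a_at, adjusted p = 0.0164, up to 0.0797, the call ending with no scaling, with no filter and without replicate 3 at 31.5 °C) and by 1.15 (1424487_x_at, adjusted p = 0.00152). Probe set 1424486_a_at gave 913, 771, 851 and 627 at 31.5 °C and 459, 391, 588 and 423 at 37 °C. Probe set 1424487_x_at was the dimmest and gave 235, 222, 271 and 241 at 31.5 °C and 128, 96.6, 123 and 93.7 at 37 °C. None of the 3 sets overlapped between temperatures, and the size of the change differed among them.

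Peroxiredoxin 1, encoded by Prdx1, reduces hydrogen peroxide and is recycled by thioredoxin. All 5 of its probe sets also carry the pseudogene Gm21399, so their signal cannot be assigned to Prdx1 alone. The brightest, 1436691_x_at, gave 8901, 9661, 9732 and 9861 at 31.5 °C and 7826, 8431, 9467 and 10658 at 37 °C. The groups overlapped, and the difference was 0.08 ± 0.11 (adjusted p = 0.691), with a 95% interval from -0.17 to 0.33 that holds none of the 8 differences found for the genes that rose. The other 4 probe sets had differences between -0.10 and 0.14 (adjusted p from 0.449 to 0.9).

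Sulfiredoxin, encoded by Srxn1, restores peroxiredoxins that have been overoxidised. Srxn1 (1426875_s_at) gave 2604, 2376, 2403 and 1657 at 31.5 °C and 964, 868, 1051 and 670.3 at 37 °C. The groups were far apart, and the difference was 1.35 ± 0.18 (adjusted p = 0.00314). Probe set 1451680_at gave 1133, 1109, 1037 and 766 at 31.5 °C, against 354, 293, 379 and 265 at 37 °C (1.65 ± 0.16, adjusted p = 0.000898), higher in each pair. Probe set 1425351_at gave 759, 567, 553 and 439 at 31.5 °C and 264, 125, 126 and 223 at 37 °C, and rose by 1.70 ± 0.27 (adjusted p = 0.00658). Its pairs were the least alike of the gene's called probe sets, from 0.98 to 2.18, with no overlap of the groups. The fourth, 1419942_at, was dim, at 38.4 to 67.3 at 31.5 °C and 35.2 to 51.1 at 37 °C, and did not pass (0.30 ± 0.18, adjusted p = 0.314). Among tested probe sets, those of 1 gene thus differed in their call for Gclc and Srxn1.

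**Figure D2:**
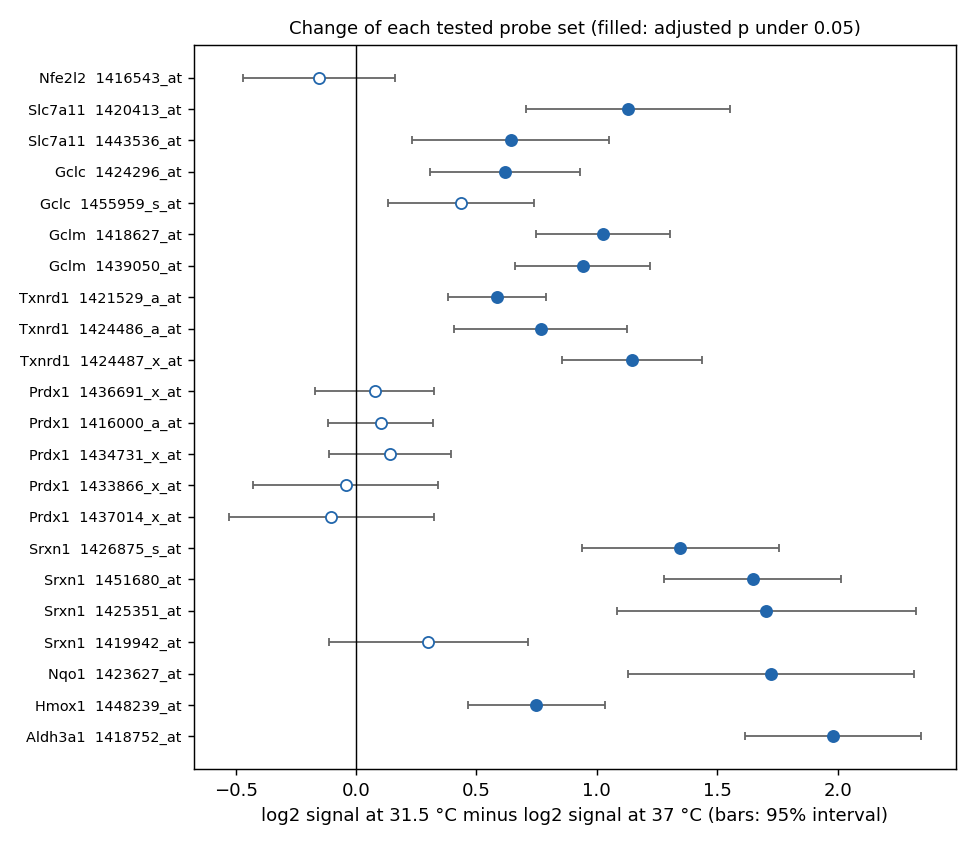
Log2 difference, 31.5 °C minus 37 °C (x axis), of each of the 22 tested probe sets of the 10 genes, with bars for the 95% interval of limma's fit; filled points passed at an adjusted p under 0.05. The 14 filled points all lie to the right of 0, the 5 Prdx1 sets lie near 0, and Aldh3a1 has the highest value, at 1.98. Aldh3a1 was tested only because of its level at 31.5 °C, and its value depends on the floor.

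Among the detoxifying enzymes Nqo1, the quinone reductase gene often taken as the standard NRF2 target, varied most between arrays. Its probe set 1423627_at gave 897, 607, 813 and 399 at 31.5 °C and 199.7, 158, 265 and 177 at 37 °C. All values at 31.5 °C were above those at 37 °C, and within 31.5 °C they differed from one another by more than those of any other of the 8 genes relative to the mean (679 ± 223, against 199.9 ± 46.4 at 37 °C). The difference was 1.72 ± 0.26 (adjusted p = 0.00516), and 2.17, 1.94, 1.62 and 1.17 in pairs 1 to 4.

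Hmox1, which encodes the haem-degrading enzyme heme oxygenase 1, gave 3610.5, 3727, 4579.6 and 3584 at 31.5 °C and 2006, 2227, 2757 and 2249.8 at 37 °C (1448239_at). The groups did not overlap, replicate 3 was the highest of both, and the difference was 0.75 ± 0.13 (adjusted p = 0.00758, and 0.0941 with no scaling). Aldh3a1, an aldehyde dehydrogenase gene, gave 108, 67.1, 105 and 85.7 at 31.5 °C and 21.0, 20.8, 23.6 and 26.1 at 37 °C (1418752_at). It had the largest fold of the 10 genes, 3.94 (1.98 ± 0.16, adjusted p = 0.000453). At 37 °C it lay under the filter of 38.3, so it was tested only because of its level at 31.5 °C and had to differ to enter. With no filter its adjusted p was 0.00439, where 2.8% of 45037 probe sets were higher, and 7 of the 10 genes were called, Gclc being lost. With the floor raised to the 50th percentile its difference was 1.22. That lies under the lowest value of Nqo1 over the alternatives, 1.57, so the rank of Aldh3a1 depended on the floor.

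Across the 9 target genes the direction was alike in each pair of arrays. The median of their log2 differences was 1.03 in pair 1, 1.21 in pair 2, 1.02 in pair 3 and 0.84 in pair 4, while Nfe2l2 had -0.11, -0.10, -0.27 and -0.14. All 9 were higher at 31.5 °C in pairs 1 to 3 and 8 of 9 in pair 4, the exception being Prdx1. Being higher in 4 of 4 pairs was found for 23.7% of all probe sets tested. Replicate 4 was the lowest array for 8 of the 10 genes at 31.5 °C, against 27.5% of all probe sets tested, and for 6 of the 10 at 37 °C, against 25.3%. Prdx1 was highest in replicate 4 at both temperatures. Replicate 4 at 37 °C was also the array with the lowest deposited signal, and without it 7 of the 10 genes were called, Gclc being lost.

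Each target was then compared with Nfe2l2 within the array, by its brightest probe set and that of Nfe2l2. Of the 9 targets 8 changed by more than Nfe2l2 and 0 by less, where 2.73% of all probe sets were above it and 0.866% below. With the replicate block the same 8 were above, where 26.5% of probe sets were above and 7.15% below. The excess was 2.14 ± 0.20 for Aldh3a1 (adjusted p = 0.000177, and 0.00228 with no filter), 1.88 ± 0.20 for Nqo1 (adjusted p = 0.000396) and 1.501 ± 0.17 for Srxn1 (adjusted p = 0.000548). It was 1.28 for Slc7a11, 1.18 for Gclm and 0.90 for Hmox1, and it was smallest among the 8 for Gclc (0.77, adjusted p = 0.0235) and Txnrd1 (0.74, adjusted p = 0.0277). Prdx1 had 0.23 ± 0.20 (adjusted p = 0.579; 95% interval -0.21 to 0.68).

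These ratios are to the bright Nfe2l2 probe set. When the probe sets of every gene were averaged, targets included, the dim Nfe2l2 set with its 37 °C values at the floor entered the ratio. In that setting 3 of the 8 targets (Srxn1, Nqo1 and Aldh3a1) were called above Nfe2l2, and Prdx1 was called below it. With no filter 6 were above, Gclc and Txnrd1 being lost. Without replicate 2 at 31.5 °C or without replicate 1 at 37 °C 5 targets were above, with Gclc, Txnrd1 and Hmox1 lost in each case. Txnrd1 was also lost without any other array at 31.5 °C or replicate 2 at 37 °C, and Gclc without replicate 1 at 31.5 °C or replicate 2 at 37 °C.

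**Figure D3:**
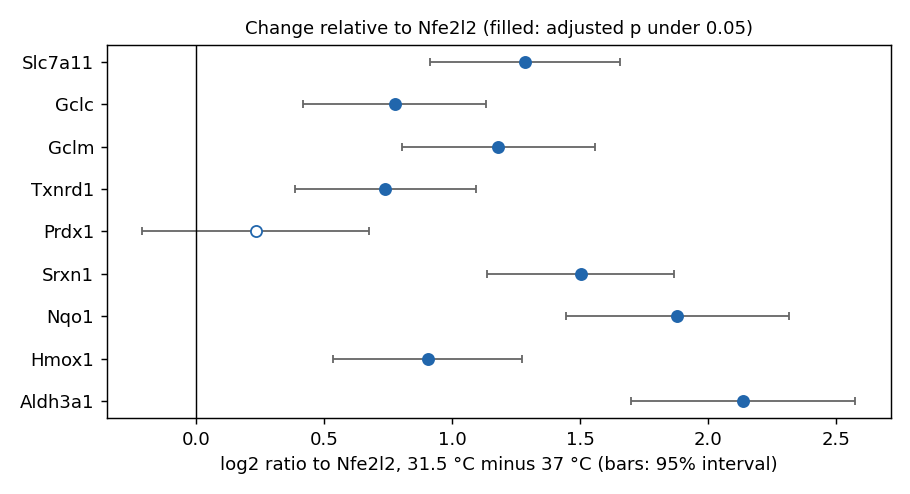
Log2 ratio of each target to Nfe2l2 on the same array, 31.5 °C minus 37 °C (x axis), with bars for the 95% interval; filled points passed at an adjusted p under 0.05. The 8 filled points run from 0.74 for Txnrd1 to 2.14 for Aldh3a1, and the bar of Prdx1 crosses 0. Aldh3a1 was tested only because of its level at 31.5 °C.

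Other genes of the pathway were taken from 5 lists, each gene by its brightest probe set of its own. Of 56 such genes beside the 10, all tested, 16 rose, 2 fell and 38 did not pass, against 6.73% higher and 6.9% lower among 11528 genes tested. Their median log2 difference was 0.17, against -0.0027 for all genes. With the replicate number as a block 23 rose and 6 fell, where 12.9% and 14% of all genes did. Msrb2, among the 2 that fell without the block, was tested only because of its level at 37 °C. The lists were chosen with earlier results of these data known, so these shares are a description and no independent test.

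Among the regulators only Keap1, the gene of the adaptor that holds NRF2, passed. Its signal was 501 ± 22.4 at 31.5 °C and 391 ± 13.0 at 37 °C (0.35 ± 0.08, adjusted p = 0.0196, up to 0.674), and the call ended with median scaling, with no scaling, without replicate 1 or 3 at 31.5 °C, and under the block without pair 1, 3 or 4. Cul3, the ubiquitin ligase scaffold that works with KEAP1, had 0.23 (adjusted p = 0.0801, and 0.0439 with the block). Sqstm1, an autophagy receptor that binds KEAP1, had 0.32 (adjusted p = 0.059, and 0.035 with the block). The small MAF partner genes Maff (0.23, adjusted p = 0.359) and Mafg (0.04, adjusted p = 0.848) and the competing repressor gene Bach1 (-0.10, adjusted p = 0.591) did not pass.

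Of 21 genes of glutathione synthesis and use, members included, 8 rose, 1 fell and 12 did not pass, with a median of 0.17. Gsta4, a glutathione transferase, averaged 5559 ± 840 at 31.5 °C and 2482 ± 432 at 37 °C (1.17 ± 0.16, adjusted p = 0.00361). The gene of glutathione reductase, Gsr, rose by 1.14 (adjusted p = 0.015, up to 0.0567) and that of glutathione synthetase, Gss, by 0.70 (adjusted p = 0.0116, up to 0.133). Cth, which makes cysteine from cystathionine, moved the other way: it was at 61.0 ± 11.5 at 31.5 °C and 119 ± 14.1 at 37 °C, and fell by 0.98 on the log2 scale (adjusted p = 0.00537, up to 0.0515).

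In the thioredoxin and peroxiredoxin list, Txnrd1 and Srxn1 included, 5 of 15 rose, 1 fell and 9 did not pass (median 0.18). Txnrd3, a further thioredoxin reductase gene, averaged 308 ± 34.3 at 31.5 °C and 130.3 ± 8.27 at 37 °C (1.24 ± 0.10, adjusted p = 0.000523). Prdx4, the peroxiredoxin of the endoplasmic reticulum, rose by 0.48 (adjusted p = 0.0192, up to 0.462), and was at 0.27 when its probe sets were averaged. Txnip, an inhibitor of thioredoxin, rose by 0.63 (adjusted p = 0.0341, up to 0.206). The call of Prdx4 ended without replicate 2 or 3 at 31.5 °C or replicate 2 at 37 °C, and that of Txnip without replicate 1, 2 or 4 at 31.5 °C or replicate 1 or 2 at 37 °C. Msrb2, a dim methionine sulfoxide reductase gene, fell by 0.81 (adjusted p = 0.0408, up to 0.189), with 35.5 ± 7.74 at 31.5 °C and 63.1 ± 18.9 at 37 °C. At 31.5 °C its mean lay under the filter of 38.3, so it was tested only because of its level at 37 °C. Its call ended with quantile normalization, median scaling, no scaling, the floor at the 50th percentile and no filter. It was also lost without any single array other than replicate 1 at 31.5 °C.

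The list of other NRF2 targets had the highest median, 0.63, with 10 of 16 genes higher, 0 lower and 6 that did not pass. Nqo1, Hmox1 and Aldh3a1 are in this count, and without them 7 of 13 rose. Blvrb, a biliverdin reductase gene, averaged 925 ± 127 at 31.5 °C and 375 ± 95.2 at 37 °C (1.33 ± 0.19, adjusted p = 0.00391). The export pump gene Abcc4 rose by 0.94 (adjusted p = 0.0048), the carbonyl reductase gene Cbr3 by 0.72 (adjusted p = 0.00508, and 0.117 with no scaling) and Pgd, of the NADPH-making pentose phosphate pathway, by 0.60 (adjusted p = 0.00613, and 0.255 with no scaling). Of 4 genes that remove superoxide or hydrogen peroxide 0 passed in limma (1 higher and 1 lower by unadjusted p at 0.05). Sod1 had 0.26, Sod2 0.25, Cat 0.08 and Sod3 -0.86 (adjusted p from 0.11 to 0.739), while with the block Sod1 and Sod2 were called higher and Sod3 lower.

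**Figure D4:**
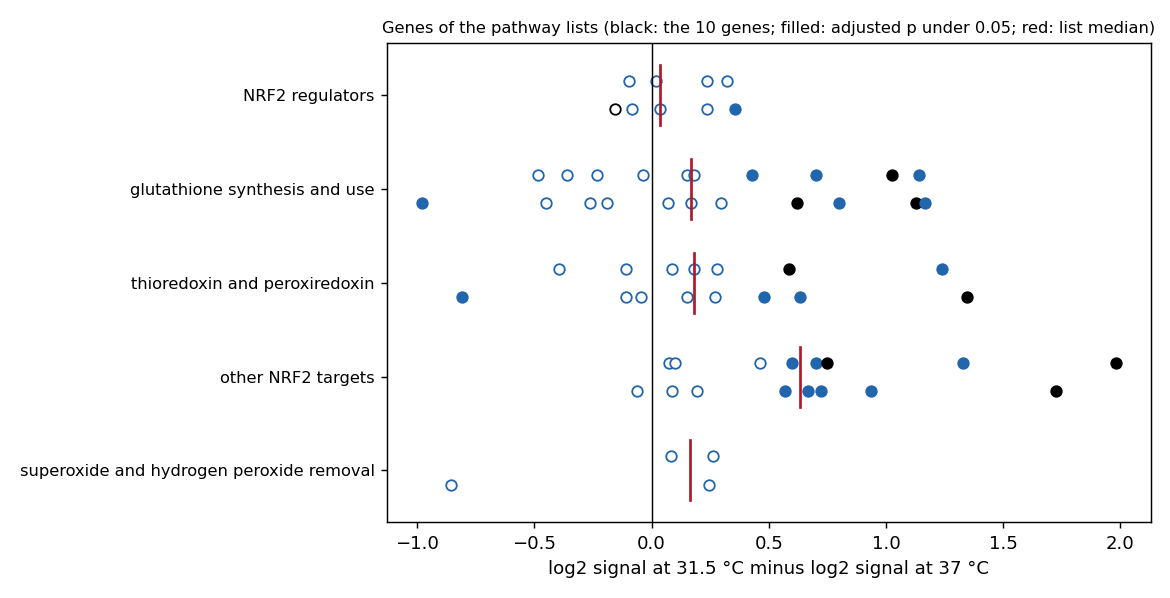
Log2 difference, 31.5 °C minus 37 °C (x axis), of each tested gene in the 5 pathway lists (rows), by its brightest probe set; black points are among the 10 genes, filled points passed at an adjusted p under 0.05, and red bars give list medians. The other NRF2 targets have the rightmost median, 0.63, and 2 filled points, Cth and Msrb2, lie left of 0.

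The profile of Nqo1 over the 8 arrays was compared with the 20497 other single-gene probe sets tested. The highest correlations were those of Cmss1 (r = 0.998), Abcc4 (0.993), Pgd (0.993), Cbr3 (0.992) and the lipase gene Lipg (0.991), and 3 of these 5 genes are in the lists above. Cmss1 (1430423_s_at) was at 231 ± 30.5 at 31.5 °C and 147 ± 13.1 at 37 °C. The other 7 genes that rose correlated with Nqo1 at 0.925 to 0.973, Prdx1 at 0.215 and Nfe2l2 at -0.0443. These values describe 8 arrays that share the 2 temperatures and the 4 replicate numbers. The difference between temperatures was left in, so genes that rose correlate with Nqo1 in part for that reason alone. The correlations are thus no separate support for the calls.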

How the data were processed

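Total RNA was read on 8 Affymetrix mouse arrays. The authors deposited linear intensity values per probe set, made with MAS5 per the submitters' processing notes; version, scaling target and detection calls are not given in the sources used here. Probe sets were named through GEO's platform annotation: of 45037 left after 64 controls, 34945 carried 1 symbol. Arrays were scaled to the mean of their trimmed means (2% cut at each end), values under the 25th percentile (9.80) were raised to it, and log2 was taken. The 22519 probe sets at or above the median of the probe set means (38.3) were each tested with limma 3.58.1 (lmFit, eBayes, two-sided) in R 4.3.3, adjusted by Benjamini-Hochberg over all, temperature as the only term. For the ratios to Nfe2l2 and Gclc, that gene's log2 signal was subtracted on each array and the same fit was run.

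Arrays of the same replicate number deviated together from their group means (correlation 0.522, 0.385, 0.442 and 0.578, against at most 0.00334 for different numbers), so the numbers pair the arrays. Precision is limited by the number of arrays. The tests were first checked against simulated data with independent arrays, so that check did not cover the pairing. The members and lists were chosen with earlier results of these data known. Named beside the 10 genes are Keap1, Bach1 and Mafg, up to 4 genes of smallest p per list, genes called against their list's direction, and the 5 profiles most like Nqo1. Of 73 listed genes 65 had a probe set of their own. Alternatives were other scalings, floors, filters, summaries of probe sets and estimates of spread, the replicate block, and leaving out arrays or pairs. Plots used matplotlib 3.10.9 (Python 3.11.15). "Up to" gives the highest adjusted p over the alternatives.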

Additional observations from a re-analysis of the deposited data

Results flagged for a closer look

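Within the 4 arrays of a temperature, 4 values of the tested probe sets stood apart from the other 3 by more than Dixon's critical value for the gap, among 44 groups examined. Chance alone gives about 1 in 20. All 4 were at 31.5 °C. Slc7a11 (1420413_at) was at 254 in replicate 4, with the other arrays between 376 and 383. Hmox1 (1448239_at) was at 4579.6 in replicate 3, above 3584 to 3727 in the others. For the probe sets shared by Prdx1 and its pseudogene, 1416000_a_at was at 8099 in replicate 1, below 8708 to 8825, and 1433866_x_at was at 3504 in replicate 4, above 2567 to 2713.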

How the results depend on the processing

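The number of called probe sets over the whole array, 3007, was 1656 with median scaling, 609 with no scaling, 1787 with 1 probe set per gene, 1286 with probe sets averaged per gene and 5938 with the replicate block. It was 1588 to 2755 with single arrays left out, and 3144 to 3598 with pairs left out under the block. The lower counts per gene come with fewer features tested. Of the 10 genes 5 were called with no scaling, which left out Gclc, Txnrd1 and Hmox1, and 7 to 8 with single arrays left out. With the replicate block the same 8 genes were called. With probe sets averaged per gene 9 were called, all higher, and the gene gained was Nfe2l2, whose dim probe set then entered its mean. Of the pathway genes, members included, 26 were called, with 10 called with no scaling, 18 to 26 with single arrays left out, and 37 with the block. Against Nfe2l2 8 targets were called, all above it; with probe sets averaged 4 were called, 3 of those 8 above and Prdx1 below, and with single arrays left out 5 to 8. Gclm against Gclc kept its direction throughout, at 0.36 to 0.45 with single arrays left out, and its value with the replicate block was 0.40 (adjusted p = 0.00437).

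With the mean of probe sets 7 values changed sign: Nfe2l2 to 0.77, Cul3 to -0.0027, Mafg to -0.10, Sod2 to -0.058, and, relative to Nfe2l2, Gclc to -0.24, Hmox1 to -0.019 and Prdx1 to -0.73. For Nfe2l2, and for Hmox1 with its single probe set, this follows from averaging in the dim Nfe2l2 set. Against the bright Nfe2l2 set alone, every probe set of Gclc (0.77 and 0.59) and of Prdx1 (0.05 to 0.30) was above 0. For Cul3, Mafg and Sod2 the cause was not tested. Over single arrays left out Mafg ran from -0.032 (31.5 °C replicate 4) to 0.0812, and it was at -0.0052 without pair 4 under the block. Prdx1's 1433866_x_at was at 0.046 with median scaling, 0.037 with no scaling, and from -0.15 to 0.098 over single arrays left out, above 0 when 31.5 °C replicate 1 (0.0047) or 37 °C replicate 4 was the one. Of 53 single values followed, 22 stayed on the same side of the threshold with the same sign in every alternative run. Probe sets under the filter, and signals near the floor, are the least certain.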
